A study of Drosophila melanogaster with 2 samples.

Results

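Cytochrome P450 genes make up one of the large enzyme families of Drosophila melanogaster, and this account gives the occupancy of their promoters by the transcription factor Cnc in wandering larvae. The members were the protein-coding genes whose symbol is Cyp followed by digits, 1 or 2 lower-case letters and digits, with or without a copy suffix, which leaves out the cyclophilins Cyp1 and Cyp40. The rule found 83 genes of the 13945 protein-coding genes on the 6 nuclear chromosome arms of build dm6 (Ensembl release 115). They fell into 20 numbered families, of which Cyp6 held 23 genes, Cyp4 held 22, Cyp12 held 7, Cyp9 and Cyp313 held 6 each and Cyp28 held 4. A further 13 families held 1 gene each.

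Cnc-eGFP was mapped by chromatin immunoprecipitation and sequencing in whole larvae of both sexes, taken at the wandering stage of the last instar. The larvae came from a transgenic line that stably expressed Cnc with GFP joined to its C terminus, and the antibody was against GFP. There were 2 biological replicates of this 1 group, without any treatment or other genotype, and the samples analysed here include no control. The labels name no Cnc isoform, and whole animals mix all tissues, so that a peak present in few cells and a weak peak in many cells cannot be told apart. Because there was 1 group, no test between conditions was made, and every value below is a description.

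P450 enzymes are haem proteins that insert an oxygen atom into their substrates. Members in the endoplasmic reticulum receive electrons from the reductase Cpr, and members of the mitochondrial clan receive them from a ferredoxin and its reductase. In insects the CYP3 clan, which includes Cyp6, Cyp9 and Cyp28, is known for the breakdown of insecticides and plant compounds, the CYP4 clan for the oxidation of fatty acids and related lipids, and the CYP2 and mitochondrial clans for hormone synthesis and breakdown. Cnc is the fly counterpart of Nrf2. It pairs with the small Maf protein maf-S, is restrained by Keap1, and is known in flies as an activator of antioxidant genes and of P450 genes that respond to foreign compounds.

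A promoter summit is the summit of a peak that lies within 1000 bp of any annotated transcription start site (TSS) of the gene, and distances are negative upstream. The P450 summit window with the recognition motif of Cnc and Maf proteins, TGACNNNGC on either strand, was that of the peak shared by Cyp4d14 and Cyp4d2. It is printed here in 101 bases centred on the summit, on the plus strand of dm6 (sequence from RefSeq), with the motif match in capitals. The next windows belong to Cyp310a1 and Cyp6d5, the highest P450 peaks on 2L and on 3R, and have no capitals because they hold no match to this motif. The window of Cyp4d14 and Cyp4d2 is X:2175447-2175547, that of Cyp310a1 is 2L:18653534-18653634 and that of Cyp6d5 is 3R:14028976-14029076.
Cyp4d14/Cyp4d2: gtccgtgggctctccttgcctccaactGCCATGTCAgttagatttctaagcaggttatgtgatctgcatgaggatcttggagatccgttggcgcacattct
Cyp310a1: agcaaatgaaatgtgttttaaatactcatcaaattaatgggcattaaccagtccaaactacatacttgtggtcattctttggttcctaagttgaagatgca
Cyp6d5: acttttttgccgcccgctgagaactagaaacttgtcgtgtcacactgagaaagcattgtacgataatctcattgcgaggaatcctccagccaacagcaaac

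The match in the first window reads on the minus strand, the strand of Cyp4d14, and starts at -167 bp from the Cyp4d14 TSS. Read in the direction of the gene, the same 9 bases also stood in the promoter of Cyp304a1, a CYP2-clan gene on 3R with no promoter summit in any list, where the match starts at -177 bp. The 2 sites are shown with the motif match in capitals, so that their identical core and different flanks can be seen.
Cyp4d14: tctaacTGACATGGCagttgg
Cyp304a1: agctttTGACATGGCggccgg

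The reproducible peak list, derived by the authors from both replicates, placed a summit at the promoter of 18 of the 83 P450 genes, or 21.7% (exact binomial 95% interval 13.4% to 32.1%, which covers counting error over genes only). Over all protein-coding genes the share was 31.9%, which lies inside that interval, just below its upper end. The 18 genes came from 7 of the 20 families and had 19 distinct peaks. Cyp6u1, Cyp310a1, Cyp6d5, Cyp6a2 and Cyp6a21 had the highest peaks. Of 10 genes listed for insecticide resistance or induction by foreign compounds, 4 had a reproducible promoter summit (all coding genes, 31.9%). These were Cyp6a2, Cyp6a21, Cyp6d5 and Cyp6w1. Cyp6a8 and Cyp12a4 had one in the pooled and both replicate lists only. Cyp6g1, Cyp6g2 and both copies of Cyp12d1 had no promoter summit in any list.

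The longer lists, which run far below the reproducible threshold, also had a promoter summit at a smaller share of P450 genes than of all genes. The pooled list of 30000 peaks had a promoter summit at 43 P450 genes (51.8%) against 56.1% of all protein-coding genes. The replicate 1 list had one at 43 P450 genes (51.8%) against 57.4%, and the replicate 2 list at 39 (47.0%) against 56.7%. Each replicate list was also taken only to its highest 6153 peaks, the length of the reproducible list. Replicate 1 then had a promoter summit at 15 P450 genes (18.1%) against 32.0%, and replicate 2 at 17 (20.5%) against 31.2%. In both of these shortened lists the share of all genes lay above the exact binomial 95% interval of the P450 share. In the pooled list and both full replicate lists it lay inside the interval. A promoter summit in the pooled list and in both replicate lists was found at 35 P450 genes (42.2%) and at 48.1% of all genes. No promoter summit in any of the 4 lists was found at 34 P450 genes (41.0%) and at 34.5% of all genes.

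**Figure D1:**
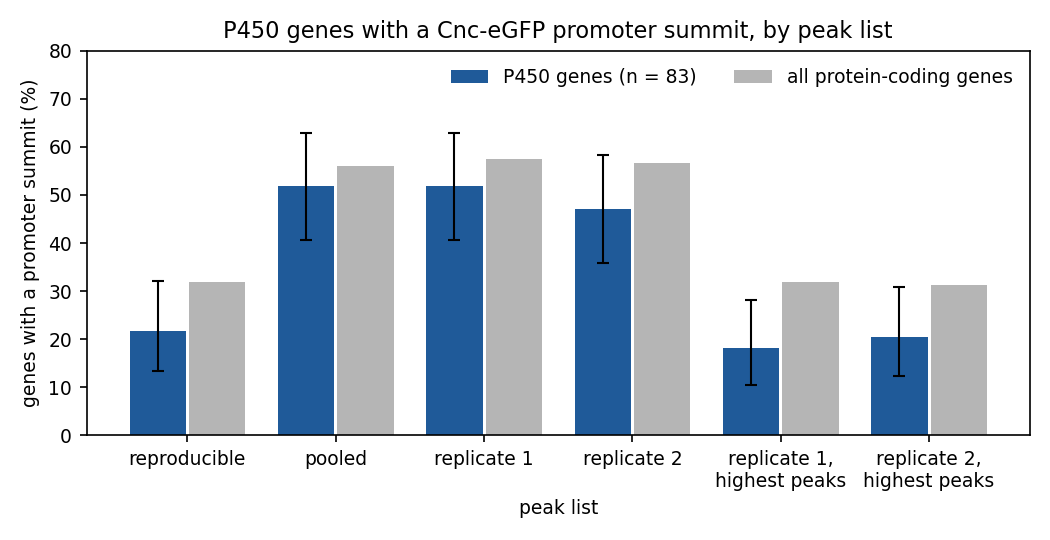
Share of genes with a Cnc-eGFP promoter summit in each peak list (%), for the 83 P450 genes (blue, with exact binomial 95% intervals for counting error over genes) and all 13945 protein-coding genes (grey). The blue bar is below the grey bar in all 6 lists, which overlap in their peaks. It is at 21.7% against 31.9% in the reproducible list. The gap is widest in replicate 1 taken to its highest peaks (18.1% against 32.0%). It is narrowest in the pooled list (51.8% against 56.1%).

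The share was read beside 2 features of gene layout that the member rule did not use. Among all protein-coding genes, 50.1% of those with another coding TSS within 1000 bp of their own had a reproducible promoter summit, against 18.2% of those without such a neighbour. P450 genes mostly stood without one: 69 of 83 (83.1%) had no other coding TSS within 1000 bp, against 57.1% of all genes. Within the group without a neighbour, 12 of 69 P450 genes (17.4%) had a promoter summit, close to the 18.2% of all such genes. Within the group with a neighbour, 6 of 14 P450 genes (42.9%) had one, against 50.1%. P450 genes also more often had 1 annotated TSS (84.3% against 73.5%), and 12 of these 70 genes (17.1%) had a promoter summit against 25.9% of all genes with 1 TSS. Of the 13 P450 genes with more TSSs, 6 (46.2%) had one, against 48.5%. The part of gene layout in the lower share of P450 genes was not tested.

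In the CYP3 clan 12 of 38 genes (31.6%) had a reproducible promoter summit, close to the 31.9% of all coding genes. In the Cyp6 family, 7 of 23 genes had a reproducible promoter summit (Cyp6u1, Cyp6d5, Cyp6a2, Cyp6a21, Cyp6w1, Cyp6t1 and Cyp6a22) and 13 had one in the pooled list. In Cyp28 it was 2 of 4 genes (Cyp28d1 and Cyp28d2), in Cyp9 1 of 6 (Cyp9f2), and the sole members of Cyp310 and Cyp317 each had one. In the CYP4 clan it was 5 of 32 genes (15.6%), all of the Cyp4 family, where 5 of 22 members had a reproducible and 16 a pooled promoter summit. The mitochondrial clan held 1 of 9, Cyp12c1, and the CYP2 clan 0 of 4. The 6 genes of Cyp313 had no reproducible promoter summit, and the 5 Cyp313a genes had none in any list.

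**Figure D2:**
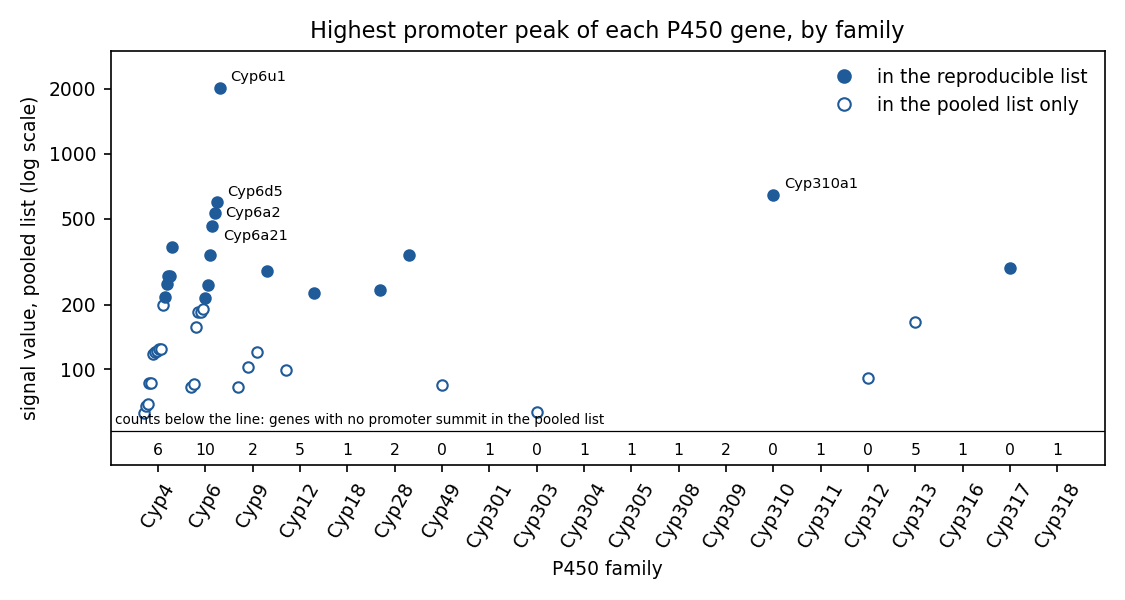
Signal value of the highest pooled-list promoter peak of each P450 gene (log scale), by family, filled where the peak is in the reproducible list and open where it is in the pooled list only. The numbers under the line count the genes of each family with no pooled promoter summit. Cyp6u1 stands at 2023, and every other P450 gene is at or below 647.

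Cyp6u1, on 2R, had the highest P450 peak (2R:6974970-6975322). Its signal value was 2023 in the reproducible list, rank 120 of 6153, with 1107 in replicate 1 (rank 145) and 906 in replicate 2 (rank 119). The summit lay at -135 bp from the Cyp6u1 TSS but 28 bp from the TSS of Ufsp1, a gene outside the P450 family, and the peak cannot be assigned to either gene alone. Signal values are the authors' peak score against a control. The sources used here do not give its scale. They are compared within a list, and ranks are given where lists stand side by side.

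Below it came Cyp310a1, with a signal value of 647 (rank 1219) and ranks of 1044 in replicate 1 and 1760 in replicate 2. Cyp6d5, a gene raised by foreign compounds, had 597 (rank 1394), with rank 848 in replicate 1 and 2538 in replicate 2. Both genes lie inside an intron of a longer gene, Cyp310a1 in MESR3 and Cyp6d5 in rdx, and their summits at -574 bp and -202 bp also fell in those introns. No TSS of the host genes was within 1000 bp of either summit.

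Cyp6a2, which metabolises DDT and is induced by barbiturates, had 2 reproducible promoter summits inside an intron of its host gene Epac. The nearer, at -111 bp (2R:6781522-6781699), had a signal value of 531 (rank 1709), and the farther, at -311 bp (2R:6781769-6782045), had 444 (rank 2231). The highest overlapping replicate 1 peaks had 182 and 224. In replicate 2 the highest overlapping peak was the same for both, with 307. Replicate 2 had 2 promoter summits at Cyp6a2, and the position of the lower one was not examined.

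Cyp6a21 had a signal value of 464 (rank 2092; replicate ranks 2365 and 2113) with the summit at -124 bp. Cyp6w1, which has been tied to DDT resistance, had 338 (rank 3271; replicate ranks 3974 and 2849) at -472 bp. These 2 genes and Cyp6a2 lie on 2R, the arm with 34 of the 83 P450 genes. By arm, the reproducible promoter summits were at 7 of 34 genes on 2R against 30.5% of all genes of the arm, 4 of 14 on X against 28.2%, 3 of 13 on 2L against 30.9%, 2 of 6 on 3L against 32.5% and 2 of 16 on 3R against 35.5%.

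In the Cyp4 family, 4 of the 6 Cyp4d genes and 1 of the 16 other Cyp4 genes, Cyp4e2, had a reproducible promoter summit (all coding genes, 31.9%). The Cyp4d genes were singled out after their values were seen, their 4 genes rest on 3 peaks, and Cyp4d14 was lost without replicate 2. Cyp4d1 had a signal value of 371 (rank 2883; replicate ranks 2726 and 2468). Its summit at -349 bp was 333 bp from the TSS of CG3630, inside an intron of that gene. Cyp4d14 and Cyp4d2 face away from each other on the X and share 1 peak (X:2175315-2175678) with a signal value of 273, its summit at -182 bp of Cyp4d14 and -509 bp of Cyp4d2. This is the peak with the Cnc-Maf motif. It was unequal between replicates, at rank 3100 in replicate 2 and rank 16932 in replicate 1, where its signal value was 42.8. Replicate 1 had a higher but separate peak, 112 (rank 5659), at -155 bp of the inner of the 2 annotated Cyp4d2 TSSs. That summit lay inside Cyp4d2, more than 1000 bp from the Cyp4d14 TSS.

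Cyp4d20, on 3L inside an intron of Svil, had a peak of 216 (rank 5792) with the summit at -391 bp. A higher reproducible peak (3L:2479327-2479566), with a signal value of 546 (rank 1625), had its summit at -1008 bp and so fell just past the 1000 bp limit. The other Cyp4 gene with a summit, Cyp4e2, had 250 (rank 4820) at -29 bp, the smallest distance among the 18 genes, with rank 2966 in replicate 1 and 7097 in replicate 2.

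The remaining genes had signal values between 213 and 339. Cyp28d1 and its neighbour Cyp28d2 on 2L had 339 at -946 bp and 233 at 543 bp, so the Cyp28d1 summit was just inside the 1000 bp limit and the Cyp28d2 summit, in an intron of Cyp28d2 itself, was the only highest summit of the 18 genes downstream of its nearest TSS. Another reproducible summit, with 251, lay between the 2 genes at 1468 bp from the Cyp28d2 TSS and -1725 bp from that of Cyp28d1. Cyp317a1, which has 2 annotated TSSs, had 2 peaks, of 296 and 261. The peak of 296 was at -312 bp of the inner TSS, in an intron of Cyp317a1 itself, and that of 261 at -233 bp of the outer TSS. Cyp9f2 had 285 at -457 bp, but the summit was 47 bp from the TSS of CG5167. Cyp12c1, of the mitochondrial clan, had 226 (rank 5493) at -187 bp, with ranks of 13586 and 7254 in the replicates. The lowest peak, that of Cyp6a22, had 213 (rank 5883), and its summit lay in the 5′ UTR of Pcf11, 8 bp from the TSS of that gene.

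As a group the 19 peaks stood lower in the list than promoter peaks in general. Their median signal value was 296, against 373 for the 3832 reproducible promoter peaks of all protein-coding genes. Of the 19, 7 (36.8%) were among the highest 3076 reproducible peaks, against 53.5%. Their lowest value was 213 and their highest 2023, against 206 and 7349 for all promoter peaks.

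Most P450 peaks were found in both replicates, at unequal ranks. Of the 19 peaks, 18 were overlapped by at least 1 bp in both replicate lists, and so were 3737 of all 3832 reproducible promoter peaks. The exception was the Cyp6t1 peak, with a signal value of 246 (rank 4915) at -176 bp. It overlapped a replicate 2 peak of 158 (rank 3326) and no replicate 1 peak, although replicate 1 had a separate summit of 32.6 at -637 bp. Ranks within the highest 6153 of both replicate lists were reached by 10 of the 19 peaks (52.6%), against 75.1% of all reproducible promoter peaks. The 10 peaks belonged to Cyp6u1, Cyp310a1, Cyp6d5, Cyp6a2 (both peaks), Cyp6a21, Cyp4d1, Cyp28d1, Cyp6w1 and Cyp317a1 (its peak of 296). The other 9 fell below that rank in 1 replicate or both.

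**Figure D3:**
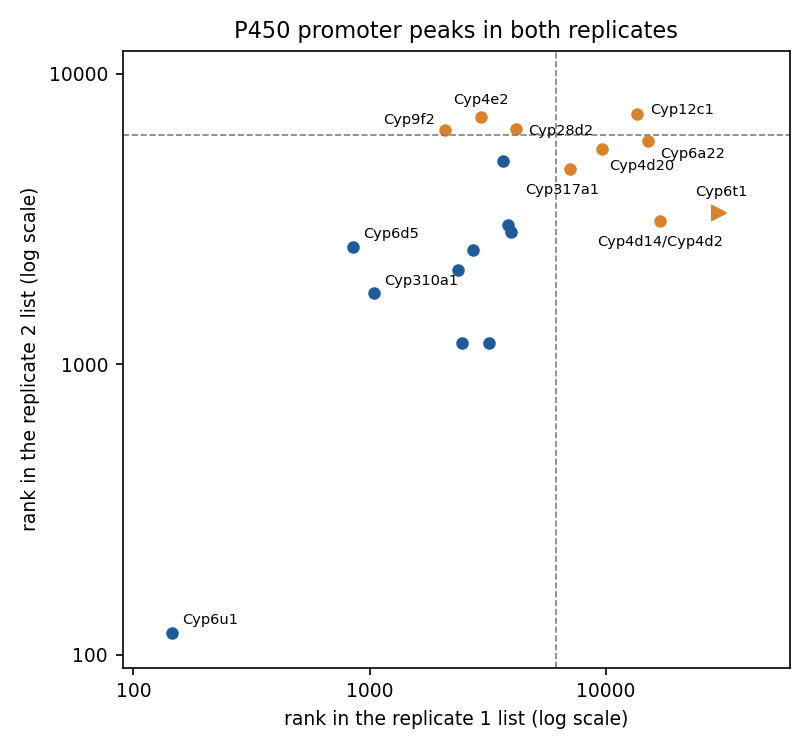
Rank of each of the 19 reproducible P450 promoter peaks in the replicate 1 list (x) and the replicate 2 list (y), on log scales where a low rank is a high peak, with dashed lines at rank 6153. The 10 blue peaks are inside rank 6153 in both lists, and the 9 orange peaks are outside in at least 1. The triangle marks Cyp6t1, which overlapped no replicate 1 peak and is drawn at the list's end.

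The summits lay mostly upstream. The highest summit of 17 of the 18 genes (94.4%) was upstream of the nearest TSS of the gene, against 81.3% of the 4449 genes with a reproducible promoter summit. The count includes Cyp317a1, whose summit is upstream of its inner TSS but inside the gene. The median distance of the 18 highest summits was -252.5 bp, against -142 bp over those genes. By annotation 10 summits (52.6%) were intergenic, against 49.01% of all reproducible promoter peaks, 8 were in introns and 1 was in a 5′ UTR. The nearest coding TSS was that of a P450 gene for 15 of the 19 peaks. The 4 others, at Cyp6u1, Cyp4d1, Cyp9f2 and Cyp6a22, were nearer to the TSS of another gene. Peaks in reach of more than 1 coding gene made up 5 of 19 (26.3%), against 43.7% of all promoter peaks. The median GC content of the 101-base windows was 32.7%, against 33.7%.

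**Figure D4:**
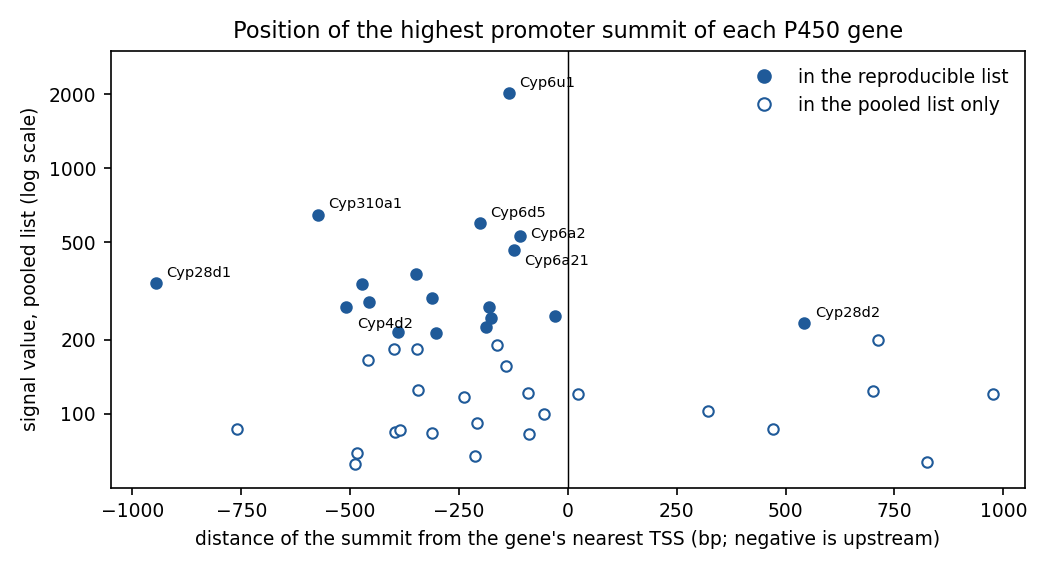
Distance of the highest pooled-list promoter summit from the TSS of each P450 gene (bp, negative upstream) against its signal value (log scale), filled for peaks in the reproducible list. Of the 18 filled points, 17 are left of 0, and Cyp28d2 at 543 bp is the exception.

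P450 genes nested inside other genes had a summit about as often as the rest. Of the 83 genes, 17 (20.5%) lay wholly inside another coding gene, against 13.4% of all coding genes. Of these 17, 4 (23.5%) had a reproducible promoter summit (Cyp310a1, Cyp6a2, Cyp4d20 and Cyp6d5), against 20.1% of all nested coding genes. Among the nested genes without one were the 3 Cyp4p genes, all in hig, and the 3 Cyp4ac genes, all in tkv.

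P450 genes often stand in arrays. When genes with gaps of up to 20000 bp were joined, 48 of the 83 fell into 17 clusters and 35 stood alone. A reproducible promoter summit was found at 10 of the 48 clustered genes (20.8%) and at 8 of the 35 single genes (22.9%). The largest cluster, 9 genes over 31730 bp of 2R (2R:14871366-14903095), ran from Cyp6a22 to Cyp317a1. Of its genes, Cyp6a22, Cyp6a21 and Cyp317a1 had a reproducible promoter summit. Another 5, Cyp6a17, Cyp6a23, Cyp6a9, Cyp6a20 and Cyp6a8, had one in the pooled list only, with signal values from 83.1 to 191. Cyp6a19 had none in any list. Neighbours in 1 array thus ran from no summit in any list to a signal value of 464. Cyp6a9 and Cyp6a20, which face away from each other, shared a peak of 184 (rank 7138).

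**Figure D5:**
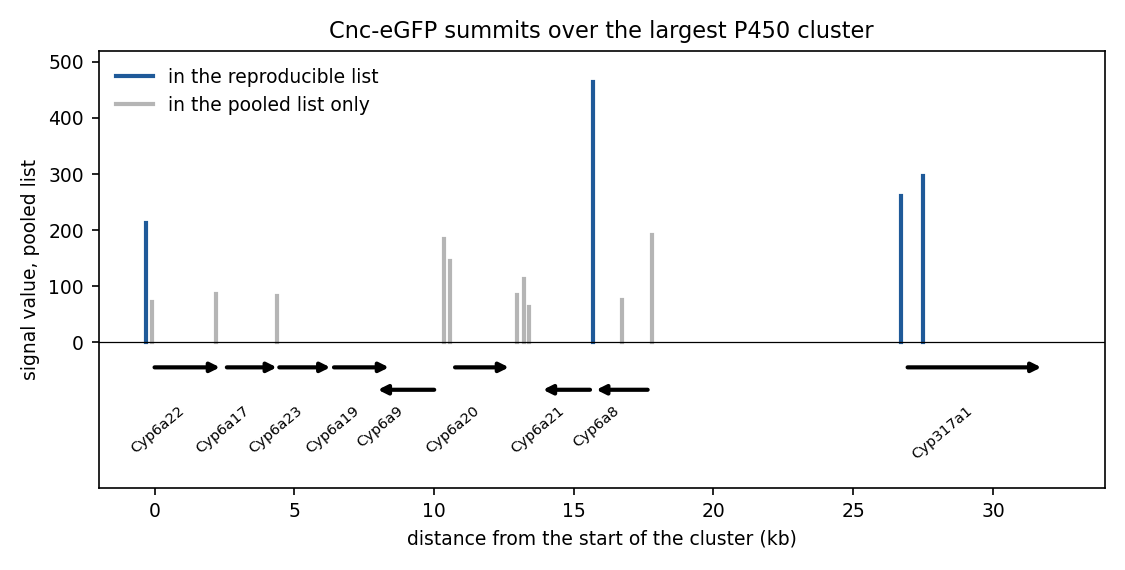
Pooled-list summits (vertical lines, height is the signal value) over the largest P450 cluster, against distance from the cluster's start (kb), with genes as arrows in the direction of transcription. The highest summit, 464, is at Cyp6a21. The other reproducible summits are the line at Cyp6a22, the line before Cyp317a1 and the line inside Cyp317a1, and those over Cyp6a17 to Cyp6a20 and at Cyp6a8 are below 200.

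Most other clusters had a reproducible summit at none of their genes, and each of these clusters held only 2 or 3 genes. On the X, 3 of the 4 genes of the cluster of Cyp4d1, Cyp4d14, Cyp4d2 and Cyp4ae1 had a summit, and both genes of the Cyp28d pair on 2L did. The clusters of 3 Cyp4p genes on 2R and 3 Cyp4ac genes on 2L had pooled promoter summits at every gene, with signal values of 118 to 199.5 and 62.7 to 124, and a reproducible one at none. No promoter summit in any list was found in the clusters of Cyp6g1, Cyp6g2 and Cyp6t3, of Cyp313a5, Cyp313a2 and Cyp313a3, of Cyp309a1 and Cyp309a2, of Cyp18a1 and Cyp308a1, and of the 2 copies of Cyp12d1.

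The copies Cyp12d1-p and Cyp12d1-d cannot be read as unoccupied. All 252 of the 50-base words in each of their promoters (250 bases upstream to 50 downstream of the TSS) occurred again on the 6 arms, whereas no such word of the other 81 P450 promoters did. The sources used here do not say how reads that match more than 1 place were treated. For the 32 other genes without any summit, no word of the promoter was repeated.

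Of the 65 genes without a reproducible promoter summit, 25 had one in the pooled list, 17 of them in both replicate lists as well. Another 6 had one in a replicate list but not in the pooled list, and 34 had none. Over all 83 P450 genes, 51.8% had a pooled promoter summit and 41.0% had none in any list. Over all coding genes these shares were 56.1% and 34.5%. The 6 were Cyp311a1 and Cyp318a1, which shared a replicate 1 peak of 25.5, Cyp4d21 and Cyp12e1 with 29.9 and 65.7 in replicate 1, Cyp6a14 with 48.7 in replicate 2, and Cyp305a1 with 26.1 and 32.7. Signal values of the 25 ran from 62.7 to 199.5, with a median of 102, and the reproducible list ended at 206. The genes just outside were Cyp4p2 with 199.5 (rank 6399), Cyp6a8 with 191 (rank 6788), the shared peak of Cyp6a9 and Cyp6a20 with 184, Cyp313b1 with 165, Cyp6v1 with 157, Cyp4ad1 with 125, Cyp4ac2 with 124, Cyp4p3 with 122 and Cyp4d8 with 120. The genes just inside were Cyp6a22 with 213 and Cyp4d20 with 216.

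The nearest reproducible summit of the 65 genes lay between 1725 and 76923 bp away, with a median of 9347 bp. It was within 2000 bp for 3 genes, Cyp4ad1 at -1725 bp, Cyp6a8 at 1939 bp and Cyp6v1 at -1968 bp, within 5000 bp for 19 and over 20000 bp away for 16. The summits near Cyp4ad1 and Cyp6a8 were those of the neighbouring genes Cyp4e2 and Cyp6a21. No gene of the 65 had a reproducible summit inside its body. The choice of these genes had already excluded summits within 1000 bp of a TSS, and the median P450 gene was 2099 bp long. No such distances or counts were set beside them for all coding genes without a promoter summit.

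By known role, 4 of the 10 genes listed for insecticide resistance or induction by foreign compounds had a reproducible promoter summit (Cyp6a2, Cyp6a21, Cyp6d5 and Cyp6w1), and 6 had a pooled one, counts near the 31.9% and 56.1% of all coding genes. Of the other 6, Cyp6a8, a gene induced by caffeine and barbiturates and raised in DDT-resistant flies, had 191 in the pooled list at -163 bp, with ranks of 12899 and 7689 in the replicates. Its promoter held the Cnc-Maf motif at -64 bp. Cyp12a4, a mitochondrial-clan gene known for lufenuron resistance, had a pooled value of 99.8 (rank 16342) at -56 bp. Its highest replicate 1 summit, at -72 bp, ranked 6188. The highest replicate 2 summit ranked 3138 but lay elsewhere, at -323 bp. Cyp6g1, whose raised expression gives DDT resistance in the field, its neighbour Cyp6g2 and the Cyp12d1 copies had none, the copies with the limit given above.

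Of the 2 members listed for ecdysone, 0 had a reproducible promoter summit, and so did 0 of the 4 listed for hydrocarbons, cuticle or bristles. Both lists are too short to set against the 31.9% of all coding genes. Cyp18a1, which inactivates ecdysteroids, and Cyp6t3, which acts in ecdysone synthesis, had none in any list. Cyp4g1, which makes cuticular hydrocarbons in oenocytes, had a pooled value of 87.0 (rank 19806) and no replicate 2 peak. Its relative Cyp4g15 and Cyp301a1, which acts in cuticle formation, had none. Cyp303a1, needed for sensory bristles, had 63.5 (rank 29385) in the pooled list and no peak in either replicate.

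Among genes tied to behaviour, Cyp6a20 (aggression) had 184 in the pooled list, Cyp6a17 (temperature preference) 85.7 and Cyp6a23 83.1, and 0 of the 3 were in the reproducible list, a list too short to set against the 31.9% of all coding genes. Cyp311a1, expressed in the midgut, had a summit in replicate 1 only, with a signal value of 25.5. The P450 genes of the ecdysone pathway that carry other names and so stand outside the member rule, phtm, dib, sad, shd, spo and spok, gave 1 of 6 (all coding genes, 31.9%). The exception was shd, which makes the active hormone 20-hydroxyecdysone, with 216 (rank 5803). Its summit at 964 bp was near the edge of the promoter window. The highest shd promoter summits of the replicate lists ranked 8703 in replicate 1 and 18582 in replicate 2.

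A list of 14 redox and haem genes was set beside the P450 genes, and 7 of the 14 had a reproducible promoter summit (all protein-coding genes, 31.9%). Among the listed redox genes, Cpr, the electron donor of microsomal P450 enzymes, had 227 (rank 5457) at -195 bp. Cyt-b5, an auxiliary electron donor, had 969 (rank 624) at -180 bp, and the ferredoxins Fdx1 and Fdx2 had 401 and 525. The ferredoxin reductase dare had 149, in the pooled list only, and Cyt-b5-r had none.

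Among haem genes, Uros1 had 399, Urod 261 and the haem oxygenase Ho, which breaks haem down, stood at rank 3770. The first enzyme of haem synthesis, Alas, had 82.2 and Pbgs 91.5, both in the pooled list only. Coprox had summits in both replicate lists (ranks 2865 and 6016) but not in the pooled list, FeCH had one in replicate 1 only, and Ppox had none. Of the regulators known for P450 genes, the xenobiotic nuclear receptor Hr96 had 1347 (rank 298) at -113 bp. The bHLH-PAS factor tgo had 238 at -151 bp, and its partner ss had none in any list.

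Sequence matches were few under P450 summits. The Cnc-Maf motif TGACNNNGC was in 1 of the 19 windows (5.26%), the Cyp4d14 and Cyp4d2 peak, against 2.73% of the windows of all 6153 reproducible peaks. TGACTCA, a motif of bZIP factors, was in 1 window, that of Cyp6u1, against 0.926%. GATAAG was in 2, at Cyp6a21 and Cyp317a1, against 6.55%. TATCGAT was in 0 of 19 against 5.80%, CACGTG in 0 against 0.813% and CAGCTG in 0 against 4.21%. Motifs were searched on both strands and do not contain one another. With 19 windows, 1 window is 5.26%, so each share here rests on 0 to 2 windows.

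In the promoters of the genes, from 250 bases upstream to 50 downstream of the outermost TSS, TGACNNNGC occurred in 3 of 83 P450 genes (3.61%), against 8.64% of all coding genes. They were Cyp4d14, Cyp6a8 and Cyp304a1, of which Cyp4d14 had a reproducible promoter summit, Cyp6a8 a pooled one and Cyp304a1 none. TATCGAT occurred in 7 (8.43%) against 18.2%, GATAAG in 21 (25.3%) against 19.0% and TGACTCA in 4 (4.82%) against 2.50%. CACGTG occurred in 1 (1.20%) against 4.24% and CAGCTG in 11 (13.3%) against 17.7%. A match says only that the letters are present in the window.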

How the data were processed

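Peaks came from chromatin immunoprecipitation of Cnc-eGFP in 2 replicates of 1 group. Per the deposited file lists, peaks were called against a control, for each replicate alone and for the pool of both, and the reproducible list came from comparing the replicate lists, with another list not analysed here, by irreproducible discovery rate. The sources used here do not give the aligner, the caller, their versions or the threshold. The signal value of each peak is the authors' deposited score against the control, and the −log10 q value was deposited beside it. The p-value column held no values. The replicate and pooled lists held 30000 peaks each (29967 of replicate 1 on the 6 nuclear arms). All 6153 reproducible peaks were found unchanged in the pooled list and were its highest by signal value. Read numbers were not used here, so depth is unknown. The dm3 lists were not used.

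Summits were assigned to every coding gene with a TSS within 1000 bp (Ensembl release 115), in Python 3.11.15 with numpy 2.4.6 and scipy 1.17.1. Replicate values of a reproducible peak are those of the highest overlapping peak (at least 1 bp). Where the text counts genes per list, the summit of that list's own peak decides. The assignment was tested on simulated data, where 200 of 200 summits were recovered. Coordinates are 1-based on dm6, and sequence is from the RefSeq assembly of that build. Genes named are those with a reproducible promoter summit, the 10 highest with a pooled summit only and a list of genes of known role. Other members are named where a cluster, a nest or a motif holds them. Among the latter, Cyp304a1, the genes of the empty clusters and those with a replicate summit only were named after their values were seen. Besides the 14 redox and haem genes, 1 gene first listed with them is not reported here. Members, lists and rules were chosen with earlier results of these data known. Alternatives covered distance, TSS choice, each replicate left out, height, motif window, member rule and cluster gap. No test was made, since there was 1 group, and intervals cover counting error only.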

Additional observations from a re-analysis of the deposited data

How the results depend on the processing

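The count of 18 P450 genes with a reproducible promoter summit ranged from 13 to 21 over changes of distance, TSS choice, overlap rule and member rule. With 500 bp it was 14, without Cyp28d1, Cyp28d2, Cyp310a1 and Cyp4d2. With 2000 bp it was 21, with Cyp4ad1, Cyp6a8 and Cyp6v1 added. Counting only the gene of the nearest TSS gave 13, without Cyp4d1, Cyp4d2, Cyp6a22, Cyp6u1 and Cyp9f2. A symbol with exactly 1 letter and no suffix gave 18 of 75 genes, and adding the ecdysone pathway genes gave 19 of 89. Keeping only the highest 3076 reproducible peaks left 6 of 83 genes (7.23%), against 20.3% of all coding genes. The P450 share was below that of all coding genes under every one of these settings.

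Replacing the reproducible list by the highest 6153 peaks of a single replicate gave 15 to 17 genes, of which 11 were also among the 18 under both. Cyp12c1 was lost under both. Without replicate 1, Cyp28d2, Cyp4e2 and Cyp9f2 were also lost and Cyp12a4, Cyp4p1 and Cyp4p2 gained. Without replicate 2, Cyp4d14, Cyp6a22 and Cyp6t1 were lost and Cyp313b1 gained. For 2 of the 11, the replicate calls did not rest on the reproducible peak alone. At Cyp4d20 the highest replicate summits within 1000 bp belonged to the peak just past the limit in the pooled call. The Cyp4d20 peak at -391 bp had ranks of 9664 and 5510. At Cyp4d2 the replicate 1 call was the separate summit of rank 5659 inside the gene. The peak that Cyp4d2 shares with Cyp4d14 had rank 16932 in replicate 1. The median signal value was 165 to 172 in these lists, which have their own scale. The Cnc-Maf motif was in 2 peaks with 100 bp either side of the summit and in 2 over the whole peak, against 1 with 50 bp or 25 bp, since the longer windows hold more sequence. Cluster gaps of 10000 bp and 50000 bp gave 16 and 17 clusters. The unknown depth limits what absence from a list shows.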
